A study of Xenopus laevis with 8 samples.

Results

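RNA-seq of Xenopus laevis gastrula explants compared control marginal zone with control ectoderm, the untreated controls of a study of Pinhead (pnhd), a secreted growth factor of the early embryo. All 4 control samples, 2 of each tissue, were used of the 8 in the series; the others, which carried Flag-Pinhead RNA or PhSpMo, a morpholino oligonucleotide against pnhd, entered alternative fits only. Control marginal zone samples are explants of the equatorial belt, described by the submitters as mesoderm, from embryos labelled untreated and stage 10.5, although the series text gives stage 11 for them. Control ectoderm samples are untreated ectodermal explants labelled stage 11. Tissue, stage label and the experiment each control belonged to therefore cannot be told apart in any difference given here. Strain, the number of embryos pooled and the clutches used are not stated by the labels. The p-values therefore reflect the spread between 2 samples a tissue, and that spread may be technical. The test also draws the spread of each gene towards a trend over all tested genes.

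In the frog gastrula, vegetal cells release Nodal-related signals that turn the overlying equatorial cells into mesoderm, with an organizer on the dorsal side that secretes inhibitors of BMP, Wnt and Nodal signalling. FGF and Wnt8 signals made in the mesoderm maintain it and pattern it. The animal cap lies outside the reach of these signals and forms epidermis when cultured alone, or neural tissue when BMP signalling is blocked. X. laevis is allotetraploid, so most genes have a long (L) and a short (S) homeolog, and the copies are given separately here.

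The libraries held 12551618 and 14971466 counts in control marginal zone and 19719311 and 17534756 counts in control ectoderm, and levels are given as normalised CPM, read counts scaled to the size of each library. CPM are not scaled for transcript length, so the differences given are between tissues for the same gene. Sums over markers, and the part of a single gene in them, also depend on transcript length. Sums of mesoderm markers were higher and those of epidermal markers lower in marginal zone, as the tissue labels imply. Sums of neural plate, multiciliated cell and neuron markers were also higher in marginal zone. The 18 marginal zone marker entries, among them t, eomes and wnt8a, summed to 3017 and 2852 CPM in marginal zone, against 47.2 and 49.9 CPM in ectoderm, and all 18 were higher. The 10 vegetal endoderm entries, such as sox17a and gata6, summed to 759 and 736 CPM in marginal zone, against 3.70 and 2.44 CPM in ectoderm. The marginal zone explants thus held RNA of endoderm genes too. The largest values of this set were those of mixer.S (274 and 269 CPM) and LOC100137681 (143 and 125 CPM), which has the same symbol. These mixer entries may share reads, and they are also given below among mesoderm and mesendoderm regulators. Epidermal markers were present in both tissues, at 2015 and 1955 CPM in marginal zone, against 2839 and 2871 CPM in ectoderm, with 10 of 13 entries lower in marginal zone. Neural plate markers summed to 1202 and 1249 CPM in marginal zone, against 769 and 792 CPM in ectoderm. The entry sox3.S alone gave 759 and 778 CPM of the marginal zone sums and 415 and 398 CPM of the ectoderm sums. Of the 8 neural plate entries 6 were higher and 2 lower, these being sox2.L and 1 entry of zic1.L. Multiciliated cell markers summed to 54.7 and 56.9 CPM in marginal zone, against 34.1 and 32.3 CPM in ectoderm. Of their 8 entries 3 were higher, 1 was lower and 3 were not tested, and ccno.L gave 26.2 and 28.1 CPM in marginal zone. Neuron markers summed to 62.7 and 57.9 CPM in marginal zone, against 44.2 and 38.4 CPM in ectoderm. Of their 9 entries 2 were higher, 0 lower and 4 not tested, and elavl3.L gave 40.8 and 39.2 CPM in marginal zone. Germ plasm markers summed to 169 and 179 CPM in marginal zone, against 152 and 143 CPM in ectoderm. Of their 7 entries 5 were higher and 1, ddx4.S, was lower. Markers of differentiated muscle stayed at or under 2.43 CPM and those of blood at or under 0.525 CPM in every library. In whole explants, fewer cells of a type and less RNA per cell cannot be told apart, and the part of mixed tissue in any single difference was not tested.

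Of 20411 genes tested with edgeR's quasi-likelihood test, 12197, or 59.8%, differed at a Benjamini-Hochberg adjusted p under 0.05, with 6104 higher (29.9%) and 6093 lower (29.9%) in marginal zone; "higher" and "lower" below mean past that threshold. Because most genes differed, a call alone separates little, and the size of a change is the more informative value. A change of at least 4-fold was found for 784 genes higher (3.84%) and 642 lower (3.15%) in marginal zone, a change of at least 2-fold in either direction for 16.9%, and the median log2 fold change over all tested genes was -0.00. The libraries of the 2 tissues did not overlap in 79.2% of the tested genes. Counts of list members are to be read against these shares. The rule for naming higher and lower members of each list required no overlap between tissues. A lack of overlap stated below therefore follows from that rule for the genes it picked. A gene with reads in 1 tissue only can pass the filter on low counts, and it then had to differ. Of the tested genes, 1294 were under 0.615 CPM in both libraries of 1 tissue. They included 24 of 42 tested mesoderm regulators, 10 of 25 organizer regulators, 7 of 18 endoderm regulators, 8 of 27 TGF-β ligands, 5 of 8 FGF ligands and 9 of 38 secreted modulators, and at most 8 members of any other list, so the counts of these lists are descriptions. By role, most tested regulators of mesoderm, organizer, endoderm and posterior fate, and most tested ligands of the TGF-β, FGF and Wnt families, were higher. Members of the joint list of keratins and epidermal surface genes, and citric acid cycle and nucleotide genes, were more often lower. Receptors and adhesion genes were split.

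**Figure D1:**
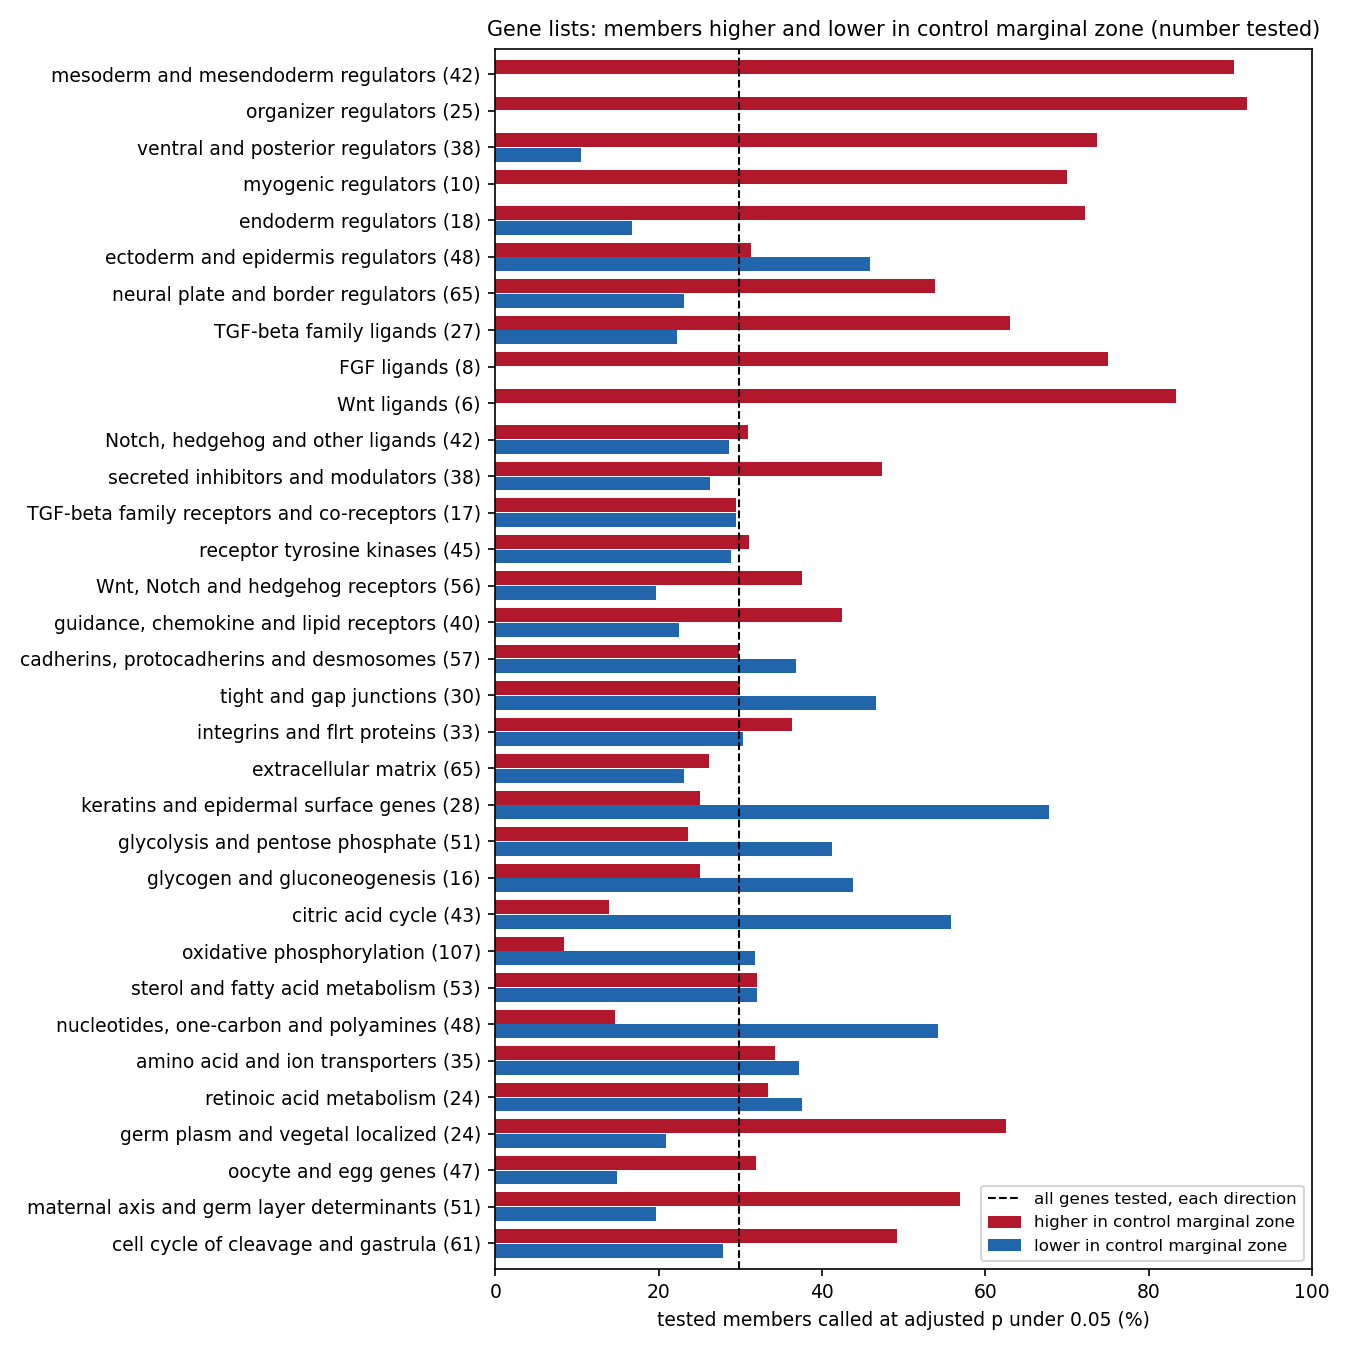
Bars give the share of tested members of each of 33 gene lists (percent, x axis; number tested in brackets) that were higher (red) or lower (blue) in control marginal zone than in control ectoderm at an adjusted p under 0.05, and the dashed line marks the 29.9% of all tested genes called in each direction. Mesoderm and organizer regulators have no lower member, while 67.9% of keratins and epidermal surface genes are lower.

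Transcription factors that set up mesoderm and mesendoderm had the largest median change of the 33 lists. Of 42 tested mesoderm and mesendoderm regulators, 38 were higher (90.5%) and 0 lower, against 29.9% of all genes in each direction. At least 4-fold higher were 36 of them, and the median log2 fold change was 7.13. Of the tested members, 24 were under 0.615 CPM in both libraries of 1 tissue, and 11 further entries had too few counts to test. With the 10 members that had no ectoderm read set to a lower bound from 3 counts, the median was 6.29. The maternal and zygotic T-box factor vegt, which starts the Nodal cascade, had 621 and 634 CPM in control marginal zone, against 13.9 and 13.1 CPM in control ectoderm for its L copy (log2 fold change 5.54, SE 0.0541, edgeR adjusted p = 1.76e-30). Its S copy had 598 and 580.4 CPM in marginal zone, against 8.02 and 10.7 CPM in ectoderm. Both copies were detected in ectoderm, far below the marginal zone libraries. Brachyury (t), the T-box factor of the whole mesodermal ring, had 328 and 293 CPM in marginal zone, against 2.36 and 2.50 CPM in ectoderm for the L copy (log2 fold change 6.99, SE 0.0895). Eomesodermin (eomes), a T-box factor that acts upstream of mesendoderm genes, had 214 and 206 CPM in marginal zone, against 1.03 and 1.74 CPM in ectoderm for the S copy (log2 fold change 7.26, SE 0.10). For t.L and eomes.S the replicates of each tissue lay close together and the tissues far apart.

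The paired-like homeodomain factors Mix and Bix, targets of Nodal and VegT, were at or near 0 in both ectoderm libraries. The L copy of mix1 had 214 and 193 CPM in marginal zone, against 0.103 and 0.406 CPM in ectoderm, and the gene entry mixer.S had 274 and 269 CPM in marginal zone, against 0.103 and 0.232 CPM in ectoderm. A second entry that carries the same symbol, LOC100137681, had 143 and 125 CPM in marginal zone, against 0 and 0 CPM in ectoderm, at least 1628-fold higher against a floor of 3 counts over the group; near-identical copies may share reads. Similarly, bix4.L had 91.2 and 86.9 CPM in marginal zone, against 0 and 0 CPM in ectoderm, at least 1086-fold higher. Ectoderm thus held few or no reads of these genes. The forkhead factor foxc1.L, of paraxial mesoderm, had 59.9 and 64.9 CPM in marginal zone, against 0.823 and 0.639 CPM in ectoderm. The zinc-finger repressor of E-cadherin snai1 had 35.3 and 35.8 CPM in marginal zone, against 1.13 and 1.22 CPM in ectoderm for its L copy. Odd-skipped factor osr2.L, of intermediate mesoderm, had 31.3 and 30.1 CPM in marginal zone, against 0.206 and 0.0581 CPM in ectoderm. In none of these genes did a marginal zone library overlap an ectoderm library. The 4 members that were not called were low in both tissues: foxf1.S, hand2.L, hand2.S and tbx1.S had log2 fold changes of 0.20, 0.30, -0.22 and 0.76.

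Most organizer regulators that could be tested were higher in marginal zone. Of 25 tested organizer regulators, 23 were higher (92%) and 0 lower, against 29.9% of all genes in each direction. At least 4-fold higher were 20 of them, and the median log2 fold change was 3.68. Of the 25, 10 were under 0.615 CPM in both libraries of 1 tissue and had to differ to be tested. Goosecoid (gsc), a homeodomain repressor of the organizer, had 7.15 and 11.8 CPM in marginal zone, against 0 and 0 CPM in ectoderm for its L copy, at least 118-fold higher, and the 2 marginal zone libraries differed from each other. The forkhead factor foxa4, of notochord and floor plate, had 68.7 and 71.9 CPM in marginal zone, against 0 and 0.0581 CPM in ectoderm for the S copy, where 1 read in ectoderm gave a depth-adjusted ratio of counts of 2584 (95% counting interval 463 to 102106). All marginal zone values of gsc.L and foxa4.S were above those of ectoderm. The LIM-homeodomain factor lhx1.S had 36.1 and 33.9 CPM in marginal zone, against 1.08 and 0.755 CPM in ectoderm (log2 fold change 5.23, SE 0.17). The notochord homeobox gene not.L was also present in ectoderm, with 81.4 and 78.9 CPM in marginal zone, against 4.47 and 3.60 CPM in ectoderm (log2 fold change 4.30, SE 0.10). The head homeobox gene otx2 was split by homeolog. Its S copy, otx2.S, had 22.5 and 28.2 CPM in marginal zone, against 1.95 and 1.51 CPM in ectoderm (log2 fold change 3.86, SE 0.18). Its L copy, otx2.L, had 1.81 and 3.15 CPM in marginal zone, against 3.55 and 3.37 CPM in ectoderm and was not called (log2 fold change -0.45, SE 0.27). The only other tested member that was not called was crx.L, a related homeobox gene, with a log2 fold change of 0.06 beside 1.33 for crx.S.

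Genes of ventral and posterior fate were mostly higher in marginal zone, but many were also well expressed in ectoderm. Of 38 tested ventral and posterior regulators, 28 were higher (73.7%) and 4 lower (10.5%), against 29.9% of all genes in each direction. At least 4-fold higher were 16 of them and at least 4-fold lower 1, with a median log2 fold change of 1.69. The ventral homeobox repressor ventx1.1, a target of BMP signalling, had 66.9 and 65.7 CPM in marginal zone, against 9.05 and 8.82 CPM in ectoderm for its S copy (log2 fold change 2.89, SE 0.0899). A smaller difference was found for ventx2.1.L, with 179 and 171 CPM in marginal zone, against 67.1 and 74.0 CPM in ectoderm (log2 fold change 1.31, SE 0.0539). In both genes the ectoderm libraries held a clear level of their own. The caudal-type homeobox gene cdx1.S had 33.5 and 29.8 CPM in marginal zone, against 1.54 and 1.8 CPM in ectoderm (log2 fold change 4.24, SE 0.16). The gene evx1.L, an even-skipped homologue of the ventral and posterior mesoderm, had 8.48 and 7.88 CPM in marginal zone, against 0.206 and 0.116 CPM in ectoderm (log2 fold change 5.58, SE 0.36). The Wnt-responsive zinc-finger gene sp5l.S had 248 and 244 CPM in marginal zone, against 54.2 and 63.9 CPM in ectoderm (log2 fold change 2.06, SE 0.0570). All 5 genes were higher in marginal zone without overlap. The 4 lower members were lmo2.L, meis3.L, meis3.S and pbx2.L. The LIM-only factor lmo2, known from blood and vascular precursors, had 0.157 and 0.131 CPM in marginal zone, against 6.53 and 6.39 CPM in ectoderm for its L copy (log2 fold change -5.42, SE 0.40). Its low count in marginal zone rests on 2 reads in each library.

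The myogenic determination genes myod1 and myf5 were low in both tissues. Of 10 tested myogenic regulators, 7 were higher (70%) and 0 lower, against 29.9% of all genes in each direction. Of the 10, 3 were under 0.615 CPM in both libraries of 1 tissue and had to differ to be tested. A further 9 entries were not tested. The gene myod1.L, the basic helix-loop-helix factor that commits cells to muscle, had 4.01 and 3.48 CPM in marginal zone, against 1.44 and 1.57 CPM in ectoderm (log2 fold change 1.31, SE 0.28). The gene myf5.L had 0.785 and 1.12 CPM in marginal zone, against 0 and 0.116 CPM in ectoderm, a ratio of counts of 17.7 (95% counting interval 4.45 to 154). The muscle and neural MADS-box gene mef2d was present in both tissues. Its S copy had 45.2 and 43.1 CPM in marginal zone, against 33.7 and 34.0 CPM in ectoderm (log2 fold change 0.38, SE 0.0762). Its L copy had 33.2 and 28.6 CPM in marginal zone, against 30.4 and 32.4 CPM in ectoderm and was not called (log2 fold change -0.03, SE 0.0895). Presomitic mespb.S, which is also in the mesoderm list, had 17.7 and 19.2 CPM in marginal zone, against 0.0514 and 0 CPM in ectoderm. The count of called members was 7 on all reads, but 4 with either column of each sample alone and 3 with a mean of at least 50 counts.

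Endoderm regulators formed a second block of large changes. Of 18 tested endoderm regulators, 13 were higher (72.2%) and 3 lower (16.7%), against 29.9% of all genes in each direction. At least 4-fold higher were 11 members, and the median log2 fold change was 4.41. The HMG-box factor sox17a, a determinant of endoderm, had 55.4 and 52.9 CPM in marginal zone, against 0.154 and 0.406 CPM in ectoderm for the L copy (log2 fold change 7.59, SE 0.19). The zinc-finger factor gata6.S had 47.0 and 42.4 CPM in marginal zone, against 0.206 and 0.0581 CPM in ectoderm (log2 fold change 8.28, SE 0.23). Its relative gata4.S had 27.6 and 28.2 CPM in marginal zone, against 0.463 and 0.290 CPM in ectoderm (log2 fold change 6.16, SE 0.21). All 3 genes were under 1 CPM in both ectoderm libraries. The 3 lower members, sox7.S, sox18.L and sox18.S, belong to the same SoxF subfamily as sox17 and are known from blood vessels. The S copy of sox18 had 4.16 and 3.81 CPM in marginal zone, against 12.4 and 15.0 CPM in ectoderm (log2 fold change -1.78, SE 0.17). The gene sox7.S had 3.22 and 6.37 CPM in marginal zone, against 14.3 and 13.1 CPM in ectoderm (log2 fold change -1.48, SE 0.19). Within the SoxF genes, then, the sox17 copies were higher and sox7.S and both sox18 copies lower, while sox7.L was higher (log2 fold change 0.66).

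Regulators of ectoderm and epidermis differed in both directions, mostly by less than 4-fold. Of 48 tested ectodermal regulators, 15 were higher (31.25%) and 22 lower (45.8%), against 29.9% of all genes in each direction. The share of higher members was thus near that of all genes. The median log2 fold change was -0.05, and only 2 members, tfap2e.S and tp63.S, were at least 4-fold lower. The AP-2 factor tfap2e had 0.157 and 0.328 CPM in marginal zone, against 8.02 and 8.01 CPM in ectoderm for its S copy (log2 fold change -4.96, SE 0.34, edgeR adjusted p = 1.63e-12). Its marginal zone libraries held few reads. The distal-less homeobox gene dlx6.S had 20.3 and 17.3 CPM in marginal zone, against 68.6 and 73.6 CPM in ectoderm (log2 fold change -1.93, SE 0.0834). The gene dlx3.L, which limits the neural plate, had 9.58 and 10.7 CPM in marginal zone, against 32.0 and 28.7 CPM in ectoderm (log2 fold change -1.58, SE 0.11). Grainyhead-like factor grhl3.S, which drives epidermal differentiation, had 139 and 136 CPM in marginal zone, against 304 and 291 CPM in ectoderm (log2 fold change -1.11, SE 0.0433). Marginal zone libraries were lower in each of these genes without falling to zero, beside the summed epidermal markers given above. Other members of the list were higher. The Krüppel-like factor klf2.S had 158 and 154 CPM in marginal zone, against 58.2 and 59.7 CPM in ectoderm (log2 fold change 1.41, SE 0.0526). The forkhead factor foxi1.S, of ionocyte and placode precursors, had 14.3 and 14.4 CPM in marginal zone, against 4.83 and 4.53 CPM in ectoderm (log2 fold change 1.61, SE 0.15). The zinc-finger factor gata3.L had 11.0 and 10.5 CPM in marginal zone, against 3.70 and 2.50 CPM in ectoderm (log2 fold change 1.78, SE 0.19). Its relative gata2.L was lower (log2 fold change -0.88).

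Neural plate and border regulators were more often higher than lower in marginal zone. Of 65 tested neural plate and border regulators, 35 were higher (53.8%) and 15 lower (23.1%), against 29.9% of all genes in each direction. The median log2 fold change was 0.69, with 9 members at least 4-fold higher and 2 at least 4-fold lower. The Iroquois homeobox gene irx3.L had 24.7 and 31.3 CPM in marginal zone, against 0.206 and 0.348 CPM in ectoderm (log2 fold change 6.65, SE 0.25). Its higher value was in the same marginal zone sample as that of gsc.L, but of 25 tested organizer regulators 14 were above in that sample. The SoxB1 factor sox3.S had 759 and 778 CPM in marginal zone, against 415 and 398 CPM in ectoderm (log2 fold change 0.92, SE 0.0349), a smaller difference on a high level in both tissues. In both genes the 2 marginal zone libraries were above the 2 ectoderm libraries. Among the lower members, the zinc-finger neurogenesis factor myt1.S had 6.36 and 6.63 CPM in marginal zone, against 17.7 and 19.7 CPM in ectoderm (log2 fold change -1.52, SE 0.14). The neural border gene pax3.L had 0.785 and 0.460 CPM in marginal zone, against 4.01 and 5.40 CPM in ectoderm (log2 fold change -2.93, SE 0.34). The eye and forebrain gene pax6 was split, its L copy higher (2.17) and its S copy lower (-2.75) on levels no higher than 2.56 CPM.

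**Figure D2:**
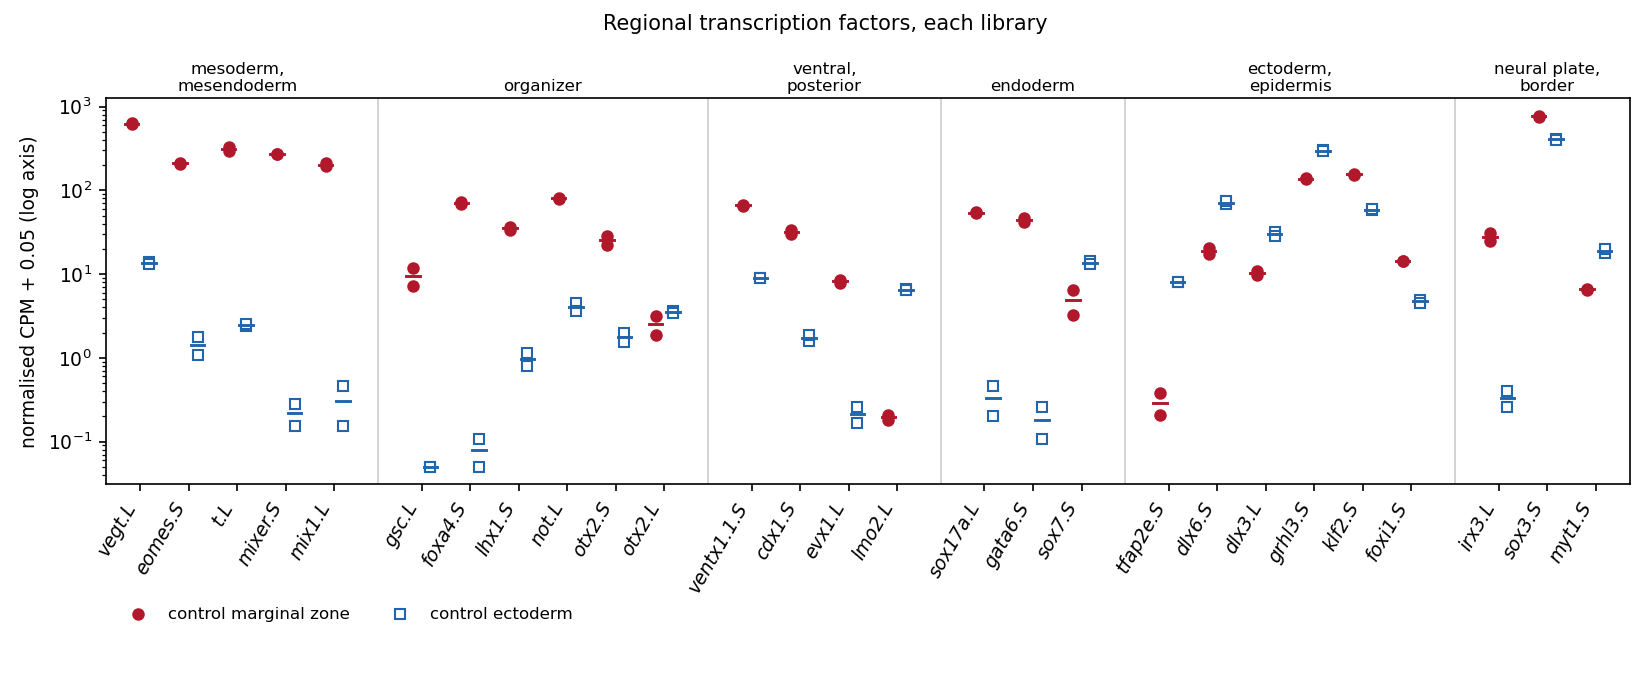
Each point is 1 library and each short line a group mean of 2 libraries, as normalised CPM plus 0.05 on a log axis, for transcription factors grouped by role, with control marginal zone (red circles) left of control ectoderm (blue squares). Mesoderm, organizer and endoderm factors such as t.L and gata6.S lie far apart, while ectodermal factors such as grhl3.S and dlx3.L sit within 4-fold, and otx2.L was not called.

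Nodal-type ligands of the TGF-β family were higher in marginal zone, and a few others of the family lower. Of 27 tested TGF-β ligands, 17 were higher (63.0%) and 6 lower (22.2%), against 29.9% of all genes in each direction. At least 4-fold higher were 13 of them, and the median log2 fold change was 0.52. The Nodal-related inducer of mesendoderm nodal1.L had 14.9 and 15.0 CPM in marginal zone, against 0 and 0 CPM in ectoderm, at least 183-fold higher. Its relative nodal2.L had 16.4 and 13.7 CPM in marginal zone, against 0 and 0 CPM in ectoderm, likewise at least 183-fold higher. Neither had a read in ectoderm. The feedback inhibitor lefty.S, which blocks Nodal reception, had 32.1 and 28.9 CPM in marginal zone, against 0.154 and 0.290 CPM in ectoderm (log2 fold change 7.07, SE 0.23). The ligand gdf3.S, a partner of Nodal in mesoderm formation, had 131 and 123 CPM in marginal zone, against 1.08 and 1.103 CPM in ectoderm (log2 fold change 6.85, SE 0.11). Both were near 1 CPM or less in ectoderm. Anti-dorsalizing admp2.L, a BMP-class ligand, had 23.01 and 25.7 CPM in marginal zone, against 3.80 and 5.52 CPM in ectoderm (log2 fold change 2.40, SE 0.15). The ligands that were lower were of BMP, activin or TGF-β type. The gene tgfb2.S had 0.628 and 0.328 CPM in marginal zone, against 10.8 and 10.2 CPM in ectoderm (log2 fold change -4.48, SE 0.28). The gene bmp4.L, the main ventralizing signal, had 77.6 and 75.0 CPM in marginal zone, against 112 and 119 CPM in ectoderm (log2 fold change -0.60, SE 0.0550).

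The 2 copies of pnhd itself were both higher in marginal zone. The S copy had 78.7 and 82.2 CPM in marginal zone, against 1.08 and 1.45 CPM in ectoderm (log2 fold change 5.995, SE 0.13, edgeR adjusted p = 1.84e-23). The L copy had 92.4 and 87.7 CPM in marginal zone, against 16.3 and 18.6 CPM in ectoderm (log2 fold change 2.37, SE 0.0773, adjusted p = 2.44e-19). The ectoderm libraries thus held a clear level of the L copy, and the difference between the copies was not tested as such.

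Most FGF and Wnt ligands were too low to test, and those tested were mostly higher in marginal zone. Of the 28 FGF entries only 8 could be tested. Of these, 6 were higher (75%), each at least 4-fold, and none lower, against 29.9% of all genes in each direction. Of the 8, 5 were under 0.615 CPM in both libraries of 1 tissue, so they had to differ to be tested. The mesoderm-maintaining ligand fgf8.L had 70.4 and 65.3 CPM in marginal zone, against 0.566 and 0.348 CPM in ectoderm (log2 fold change 7.17, SE 0.16). The gene fgf3.S (LOC108715251) had 23.4 and 23.9 CPM in marginal zone, against 0.977 and 2.03 CPM in ectoderm (log2 fold change 4.00, SE 0.19). Neither gene overlapped between tissues. Of the 29 Wnt entries 6 could be tested, with 5 higher (83.3%) and none lower. Ventrolateral wnt8a.L had 113 and 115 CPM in marginal zone, against 1.18 and 1.103 CPM in ectoderm (log2 fold change 6.63, SE 0.11). The non-canonical ligand wnt11b.L, which acts in convergent extension, had 142 and 150.4 CPM in marginal zone, against 11.6 and 10.4 CPM in ectoderm (log2 fold change 3.73, SE 0.0741). The remaining tested Wnt member, wnt5a.S, was not called (log2 fold change 0.68), and wnt5b.L was higher (1.76).

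Notch, ephrin, semaphorin and other ligands were called in each direction about as often as all genes. Of 42 tested members, 13 were higher (31.0%) and 12 lower (28.6%), against 29.9% of all genes in each direction. The other 17 were not called. The median log2 fold change was 0.00, and the median over all genes was also near zero. The Notch ligand dll1.S, of paraxial mesoderm, had 113 and 114 CPM in marginal zone, against 6.27 and 8.19 CPM in ectoderm (log2 fold change 3.98, SE 0.0890). The gene dlc.L, another Delta, had 117 and 113 CPM in marginal zone, against 21.2 and 23.05 CPM in ectoderm (log2 fold change 2.38, SE 0.0678). Midkine (mdk), a heparin-binding growth factor, had 22.7 and 21.8 CPM in marginal zone, against 4.37 and 6.15 CPM in ectoderm for its S copy (log2 fold change 2.09, SE 0.15). Other secreted factors were lower in marginal zone. Kit ligand kitlg.L had 7.07 and 6.96 CPM in marginal zone, against 61.7 and 63.3 CPM in ectoderm (log2 fold change -3.15, SE 0.10). Apelin (apln.L), the peptide ligand of the receptor aplnr, had 11.4 and 10.05 CPM in marginal zone, against 46.8 and 53.8 CPM in ectoderm (log2 fold change -2.23, SE 0.10). Semaphorin-3F, a repulsive guidance cue, was lower in both entries, with 42.1 and 44.1 CPM in marginal zone, against 113 and 119 CPM in ectoderm for LOC108714593 (log2 fold change -1.43, SE 0.0604).

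Secreted modulators of BMP, Wnt and Nodal signalling differed in both directions, with cerberus, frzb, chordin and sizzled among the higher ones. Of 38 tested secreted modulators, 18 were higher (47.4%) and 10 lower (26.3%), against 29.9% of all genes in each direction. At least 4-fold higher were 8 of them, and the median log2 fold change was 0.34. Cerberus (cer1.S), which binds Nodal, Wnt and BMP ligands, had 18.1 and 24.6 CPM in marginal zone, against 0 and 0 CPM in ectoderm, at least 265-fold higher. The Wnt antagonist frzb.S had 62.8 and 58.6 CPM in marginal zone, against 0 and 0.0581 CPM in ectoderm. The BMP antagonist chordin (chrd.L) had 6.13 and 11.7 CPM in marginal zone, against 0.463 and 0.406 CPM in ectoderm (log2 fold change 4.35, SE 0.35). In chrd.L and cer1.S, as in gsc.L, the second marginal zone sample was above the first, while in frzb.S the first was above the second. In chrd.L and cer1.S no library overlapped between tissues. The ventral inhibitor sizzled (szl), which blocks chordin-cleaving proteases, had 90.7 and 74.3 CPM in marginal zone, against 19.2 and 15.8 CPM in ectoderm for the entry szl (log2 fold change 2.23, SE 0.0941). The entry szl.L, which may share its reads, had a log2 fold change of 1.81. Tolloid-like protease tll1.S, which cleaves chordin, had 12.1 and 11.2 CPM in marginal zone, against 2.78 and 2.55 CPM in ectoderm (log2 fold change 2.12, SE 0.18). Lower members included sfrp2.L (log2 fold change -0.52), a secreted Wnt modulator, and rgmb.L (-1.83), a BMP co-receptor of the repulsive guidance family.

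Receptors changed in both directions. The medians of the 4 receptor lists lay between 0.02 and 0.17, close to that of all genes. Of 17 tested TGF-β family receptors and co-receptors, 5 were higher and 5 lower. The type II receptor copy bmpr2.S was lowest (-2.87) and the type I receptor copy bmpr1b.L highest (3.98). The bmpr2.S value rests on 2 and 5 reads in marginal zone. Its homeolog bmpr2.L was higher (0.54), with 3.85 and 5.78 CPM in marginal zone, against 3.29 and 3.43 CPM in ectoderm, but was not called by DESeq2. Of 45 tested receptor tyrosine kinases, 14 were higher and 13 lower. Wnt, Notch and hedgehog receptors had 21 higher and 11 lower of 56 tested, and guidance, chemokine and lipid receptors 17 and 9 of 40. The share of higher members was 42.5% in the guidance list and 29.4% to 37.5% in the others, against 29.9% of all genes.

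Several receptors were higher in marginal zone while their ligand was not called or was lower. The PDGF receptor pdgfra, which guides migrating mesoderm, had 22.9 and 22.7 CPM in marginal zone, against 0.0514 and 0 CPM in ectoderm for the S copy, a ratio of counts of 837 (95% counting interval 149.7 to 33102) on 1 ectoderm read, and 42.3 and 41.9 CPM in marginal zone, against 0.977 and 0.290 CPM in ectoderm for the L copy (log2 fold change 5.99, SE 0.19). Its ligand pdgfa.L had 17.2 and 14.1 CPM in marginal zone, against 14.7 and 13.99 CPM in ectoderm and was not called (log2 fold change 0.11, SE 0.12). The chemokine receptor cxcr4.S had 120.1 and 117 CPM in marginal zone, against 26.7 and 24.1 CPM in ectoderm (log2 fold change 2.22, SE 0.0662). Its ligand cxcl12.L had 42.3 and 43.1 CPM in marginal zone, against 43.6 and 42.0 CPM in ectoderm and was not called (log2 fold change -0.00, SE 0.0728). The apelin receptor aplnr.L had 60.4 and 62.6 CPM in marginal zone, against 19.4 and 22.9 CPM in ectoderm (log2 fold change 1.55, SE 0.0829). Its ligand apln.L, given above, was lower. The difference between receptor and ligand was not tested as such.

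Other receptors that were higher in marginal zone included guidance, vasoactive and Wnt receptors. The endothelin receptor ednra.S had 15.7 and 17.1 CPM in marginal zone, against 0.874 and 0.406 CPM in ectoderm (log2 fold change 4.64, SE 0.23). Neuropilin nrp2.S, a co-receptor of semaphorins, had 7.77 and 8.01 CPM in marginal zone, against 0.206 and 0.232 CPM in ectoderm (log2 fold change 5.13, SE 0.34). The Eph receptor epha4.S, which sorts cells at tissue boundaries, had 192 and 199.9 CPM in marginal zone, against 48.8 and 47.1 CPM in ectoderm (log2 fold change 2.03, SE 0.0528). Levels in marginal zone were above those in ectoderm in both libraries of each of these genes. The Wnt receptor fzd7.S had 445 and 432 CPM in marginal zone, against 93.0 and 104 CPM in ectoderm (log2 fold change 2.16, SE 0.0469). The gene notch1.L had 166 and 164 CPM in marginal zone, against 68.4 and 71.3 CPM in ectoderm (log2 fold change 1.24, SE 0.0509). The Wnt5 receptor kinase ror2.S had 9.50 and 9.78 CPM in marginal zone, against 0.823 and 1.45 CPM in ectoderm (log2 fold change 3.098, SE 0.24). These 3 receptors had reads in both tissues and no overlap. Other receptors were lower in marginal zone. The FGF receptor fgfr4.S had 159 and 153 CPM in marginal zone, against 340.3 and 335 CPM in ectoderm (log2 fold change -1.11, SE 0.0417). The neuregulin-pathway kinase erbb2.L had 7.85 and 8.93 CPM in marginal zone, against 21.6 and 26.9 CPM in ectoderm (log2 fold change -1.52, SE 0.13). The slit receptor robo3.S had 5.42 and 5.91 CPM in marginal zone, against 14.6 and 14.8 CPM in ectoderm (log2 fold change -1.37, SE 0.15).

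**Figure D3:**
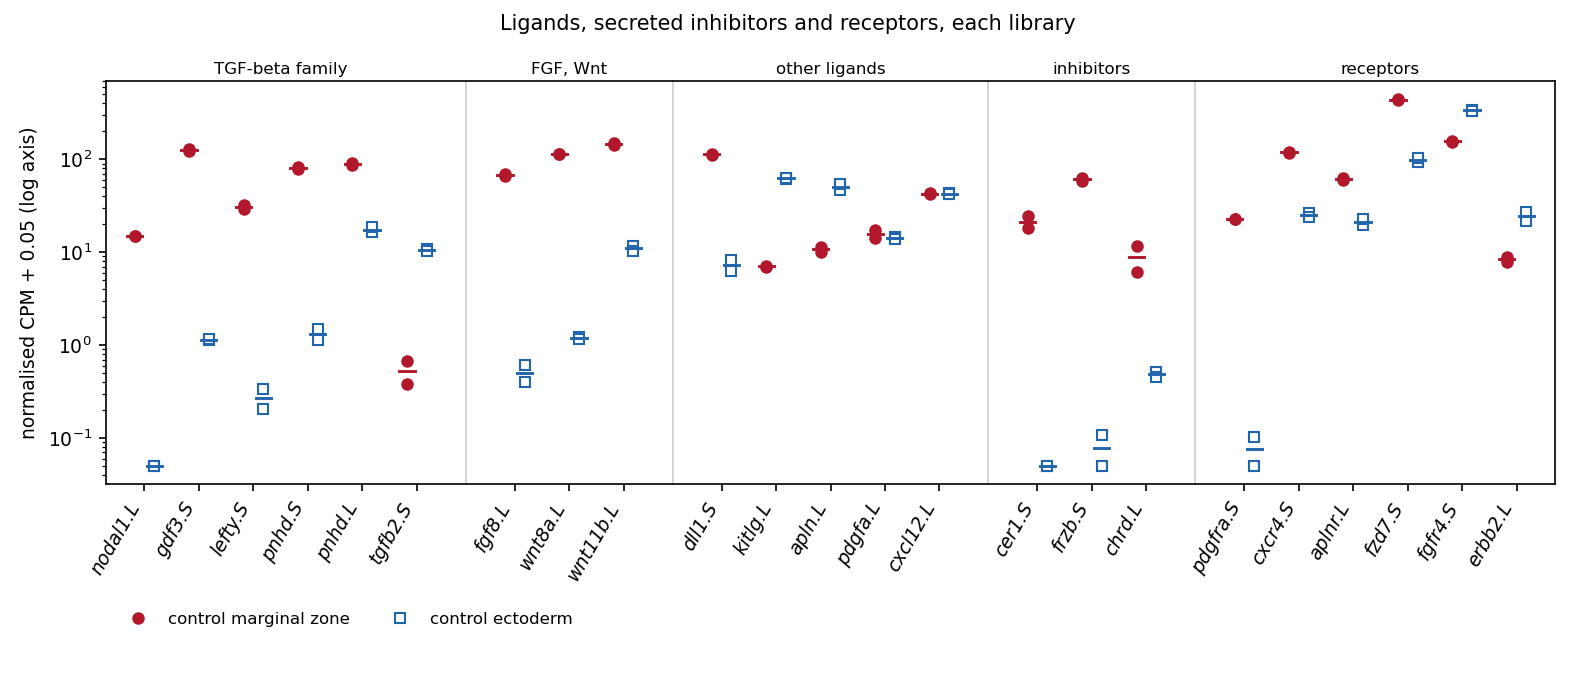
Points are single libraries as normalised CPM plus 0.05 on a log axis, with short lines for the means of 2 libraries, for ligands, secreted inhibitors and receptors in control marginal zone (red circles) and control ectoderm (blue squares). The copies pnhd.S and pnhd.L are drawn under the TGF-β family heading, and that place does not make them members of the family. The ligands pdgfa.L and cxcl12.L sit level in both tissues while their receptors pdgfra.S and cxcr4.S are higher in marginal zone, and kitlg.L, apln.L and tgfb2.S are lower there.

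Adhesion genes were divided, with a handful of very large differences. Of 57 tested cadherins, desmosomal genes and nectins, 17 were higher (29.8%) and 21 lower (36.8%), against 29.9% of all genes in each direction. The median log2 fold change was -0.02. The protocadherin pcdh8.2 had 127 and 117 CPM in marginal zone, against 0.206 and 0.522 CPM in ectoderm for the L copy (log2 fold change 8.40, SE 0.15) and 62.3 and 71.5 CPM in marginal zone, against 0.257 and 0.0581 CPM in ectoderm for the S copy (log2 fold change 8.61, SE 0.21). Dachsous (dchs1.L), a giant cadherin of planar polarity, had 18.5 and 17.01 CPM in marginal zone, against 3.29 and 2.67 CPM in ectoderm (log2 fold change 2.56, SE 0.16). E-cadherin (cdh1), the epithelial cadherin, had 128 and 142 CPM in marginal zone, against 275 and 263 CPM in ectoderm for its S copy (log2 fold change -0.99, SE 0.0480). Its L copy was low in both tissues, with 0.0785 and 0.0657 CPM in marginal zone, against 1.39 and 1.45 CPM in ectoderm. The multipass cadherin celsr1.L, of planar polarity in epidermis, had 99.9 and 92.5 CPM in marginal zone, against 201 and 197 CPM in ectoderm (log2 fold change -1.05, SE 0.0493). Nectin-4, an epithelial adhesion protein, had 3.69 and 3.68 CPM in marginal zone, against 16.04 and 16.1 CPM in ectoderm for the L copy (log2 fold change -2.12, SE 0.16). Each of these 3 genes was detected in both tissues and lower in marginal zone.

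Among 33 tested integrin, talin, kindlin and FLRT entries, 12 were higher (36.4%) and 10 lower (30.3%), against 29.9% of all genes in each direction. The leucine-rich transmembrane protein flrt3, a partner of FGF receptors that lowers cell adhesion in frog mesoderm, had 219.7 and 202 CPM in marginal zone, against 0.154 and 0.116 CPM in ectoderm for the L copy (log2 fold change 10.51, SE 0.14) and 86.6 and 79.5 CPM in marginal zone, against 2.42 and 1.74 CPM in ectoderm for a second entry (log2 fold change 5.3, SE 0.12). The laminin-binding integrin subunit itga3.L had 3.46 and 3.61 CPM in marginal zone, against 25.5 and 26.6 CPM in ectoderm (log2 fold change -2.88, SE 0.14). The gene itga6.L, another laminin receptor subunit, had 13.1 and 13.99 CPM in marginal zone, against 32.6 and 30.5 CPM in ectoderm (log2 fold change -1.22, SE 0.10). The FLRT gene was higher and both laminin receptor subunits were lower. Matrix genes were mostly low: of 162 entries 65 were tested, 17 higher (26.2%) and 15 lower (23.1%). Hyaluronan synthase has2 had 76.3 and 73.4 CPM in marginal zone, against 0.874 and 0.987 CPM in ectoderm for LOC108719401 (log2 fold change 6.32, SE 0.13). Versican (vcan.L), a proteoglycan that binds hyaluronan, had 26.6 and 25.1 CPM in marginal zone, against 0.514 and 0.697 CPM in ectoderm (log2 fold change 5.41, SE 0.20). Perlecan (hspg2.L), of basement membranes, had 36.4 and 30.9 CPM in marginal zone, against 5.14 and 7.90 CPM in ectoderm (log2 fold change 2.38, SE 0.14). All 3 genes were higher in marginal zone without overlap. Collagen chains differed in both directions, with col14a1.L higher (4.86) and the basement membrane chain col4a2.L lower (-2.32). The number of called matrix members was 32, and 19 with a mean of at least 50 counts, where fewer genes are tested.

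Epithelial junction and surface genes leaned to ectoderm. Of 28 tested keratins and epidermal surface genes, 19 were lower (67.9%) and 7 higher (25%) in marginal zone, against 29.9% of all genes in each direction. The median log2 fold change was -0.94. The keratin krt7.S had 176 and 193 CPM in marginal zone, against 975 and 1054 CPM in ectoderm (log2 fold change -2.46, SE 0.0438). The epidermal keratin krt12.L had 34.2 and 34.4 CPM in marginal zone, against 220.0 and 260.1 CPM in ectoderm (log2 fold change -2.81, SE 0.0693). Uroplakin upk1b.L, a surface membrane protein of the outer epithelial layer, had 118 and 119 CPM in marginal zone, against 265 and 288 CPM in ectoderm (log2 fold change -1.22, SE 0.0474). Each was lower in marginal zone without overlap. Keratins taken alone were split. Of 17 tested symbols beginning with krt, 8 were lower and 6 higher, with a median log2 fold change of -0.52. Higher keratins included krt18.S (0.78), a simple epithelial keratin, and krt16.S, which had 4.08 and 4.14 CPM in marginal zone, against 0.0514 and 0.116 CPM in ectoderm. Of 30 tested tight and gap junction members, 14 were lower (46.7%) and 9 higher (30%), against 29.9% of all genes in each direction. Claudin cldn4.S had 252 and 258 CPM in marginal zone, against 609 and 640.2 CPM in ectoderm (log2 fold change -1.29, SE 0.0379). The epithelial adhesion molecule epcam.L had 582 and 589.9 CPM in marginal zone, against 1065 and 1102 CPM in ectoderm (log2 fold change -0.89, SE 0.0326). The scaffold gene tjp1.S (0.59) and the connexin gjc1.L (0.70) were higher by less than 2-fold.

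Central metabolic genes differed by small amounts in the median, and citric acid cycle and nucleotide genes were more often lower than higher in marginal zone. Of 43 tested citric acid cycle genes, 6 were higher and 24 lower (55.8%, against 29.9% of all genes), with a median log2 fold change of -0.15. Of 107 tested oxidative phosphorylation genes, 9 were higher and 34 lower, with 64 not called and a median of -0.13. The 31.8% that were lower lay near the 29.9% of all genes, and the 8.41% that were higher lay below it. Nucleotide, one-carbon and polyamine genes had 26 lower and 7 higher of 48 tested, 54.2% lower, with a median of -0.22. That list does not hold the ribonucleotide reductase subunit rrm2.1.L, which was far higher in marginal zone and is given with the genes outside the lists. For these 3 lists the medians stayed below zero under each of the 4 scalings run. A single enzyme stood apart from them: mitochondrial isocitrate dehydrogenase idh2.S had 8.40 and 7.81 CPM in marginal zone, against 77.3 and 75.1 CPM in ectoderm (log2 fold change -3.23, SE 0.0912, edgeR adjusted p = 8.79e-21). Inosine monophosphate dehydrogenase impdh2.S, which commits purines to guanine nucleotides, had 110.4 and 112 CPM in marginal zone, against 322 and 350.0 CPM in ectoderm (log2 fold change -1.59, SE 0.0469). The complex I subunit ndufs1.S went the other way with 7.07 and 8.40 CPM in marginal zone, against 2.16 and 1.8 CPM in ectoderm (log2 fold change 1.96, SE 0.22).

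Single genes of sugar metabolism had large changes, in both directions, while the list as a whole changed by no more than other genes. Of 51 tested glycolysis and pentose phosphate genes, 12 were higher (23.5%) and 21 lower (41.2%), with a median log2 fold change of -0.13. Of these, 1 was at least 4-fold higher and 3 at least 4-fold lower. The median absolute log2 fold change was 0.376, against 0.383 over all genes. The glucose transporter slc2a1.L had 68.2 and 68.4 CPM in marginal zone, against 9.25 and 10.4 CPM in ectoderm (log2 fold change 2.80, SE 0.0893). The regulatory kinase and phosphatase of glycolysis pfkfb3.S had 197 and 197 CPM in marginal zone, against 77.8 and 80.8 CPM in ectoderm (log2 fold change 1.31, SE 0.0484). Hexokinase hk1.L had 0.864 and 1.18 CPM in marginal zone, against 7.87 and 7.78 CPM in ectoderm (log2 fold change -2.91, SE 0.25). The slc2a1.S copy was lower, by far less (log2 fold change -0.24, SE 0.0947). Among 16 tested glycogen and gluconeogenesis genes, 4 were higher (25%) and 7 lower (43.75%). Glycogen phosphorylase pygb.S had 0.0785 and 0 CPM in marginal zone, against 2.06 and 2.09 CPM in ectoderm. Of 53 tested sterol and fatty acid genes, 17 were higher and 17 lower (32.1% each), near the 29.9% of all genes called in each direction. DESeq2 called 21 of these 53 in all. The cholesterol synthesis enzyme dhcr7.L had 26.2 and 21.9 CPM in marginal zone, against 4.01 and 5.05 CPM in ectoderm (log2 fold change 2.41, SE 0.15). The gene idi1.L, isopentenyl diphosphate isomerase, had 16.9 and 17.9 CPM in marginal zone, against 42.9 and 43.4 CPM in ectoderm (log2 fold change -1.31, SE 0.0887), so the sterol pathway itself held changes in both directions.

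Transporters and retinoic acid enzymes held larger differences. Of 35 tested amino acid and ion transporters, 12 were higher (34.3%) and 13 lower (37.1%), against 29.9% of all genes in each direction. The creatine transporter slc6a8.S had 46.7 and 39.1 CPM in marginal zone, against 1.39 and 1.45 CPM in ectoderm (log2 fold change 4.91, SE 0.16). The neutral amino acid transporter slc38a2.L had 209 and 202 CPM in marginal zone, against 33.0 and 33.1 CPM in ectoderm (log2 fold change 2.64, SE 0.0553). Other transporters were lower. The epithelial sodium channel subunit scnn1a.L had 8.64 and 8.73 CPM in marginal zone, against 46.0 and 41.1 CPM in ectoderm (log2 fold change -2.33, SE 0.11). A sodium pump β subunit, atp1b2, had 48.0 and 44.3 CPM in marginal zone, against 209 and 206 CPM in ectoderm (log2 fold change -2.17, SE 0.0545). Of 24 tested retinoic acid genes, 8 were higher (33.3%) and 9 lower (37.5%). The enzyme that makes retinoic acid, aldh1a2.L, had 65.9 and 71.8 CPM in marginal zone, against 21.6 and 18.98 CPM in ectoderm (log2 fold change 1.76, SE 0.0811). The one that degrades it, cyp26a1.L, had 28.0 and 25.1 CPM in marginal zone, against 4.47 and 4.41 CPM in ectoderm (log2 fold change 2.57, SE 0.13). Genes of both synthesis and breakdown were thus higher in marginal zone, while the retinoic acid binding protein copy crabp2.S was lower (log2 fold change -2.76, SE 0.50). That copy rests on 2 and 6 reads in marginal zone. Its homeolog crabp2.L was higher (0.29), with 17.1 and 18.6 CPM in marginal zone, against 14.2 and 15.1 CPM in ectoderm, but was not called by DESeq2.

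Genes known as maternal were tested in 3 lists, and these counts cannot separate maternal RNA from RNA made by the embryo. Of 24 tested genes of germ plasm or vegetally localized RNAs, 15 were higher (62.5%) and 5 lower (20.8%). Of all genes, 29.9% were called in each direction. The median log2 fold change of the list was 0.38. The translational repressor nanos1.L, of germ cells, had 4.48 and 5.12 CPM in marginal zone, against 0.360 and 0.174 CPM in ectoderm (log2 fold change 4.11, SE 0.39). Germline RNA helicase ddx25.L had 12.5 and 12.9 CPM in marginal zone, against 5.50 and 4.70 CPM in ectoderm (log2 fold change 1.31, SE 0.16). The lipid droplet gene plin2.S, listed among vegetally localized RNAs, had 129 and 124 CPM in marginal zone, against 64.3 and 67.8 CPM in ectoderm (log2 fold change 0.94, SE 0.0548). In these 3 genes both tissues held reads and did not overlap. Lower members of this list included piwil2.L (-0.69), a piRNA-pathway Argonaute, and trim36.S (-0.41), a ubiquitin ligase of the vegetal cortex. Of 47 tested oocyte and egg genes, 15 were higher (31.9%) and 7 lower (14.9%), against 29.9% of all genes in each direction. The other 25 were not called, and the median was 0.11. The anti-proliferative oocyte gene btg4.S had 20.3 and 23.2 CPM in marginal zone, against 9.41 and 11.0 CPM in ectoderm (log2 fold change 1.098, SE 0.12). The RNA-binding translational repressor lsm14b.S had 32.0 and 27.4 CPM in marginal zone, against 47.6 and 53.1 CPM in ectoderm (log2 fold change -0.77, SE 0.0847).

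Maternal axis and germ layer determinants were more often higher. Of 51 tested determinants, 29 were higher (56.9%) and 10 lower (19.6%), against 29.9% of all genes in each direction. The median log2 fold change was 0.35. The 4 members at least 4-fold higher were both copies of vegt and wnt11b.L, given above, and otx1.S (2.33), a head homeobox gene. The BMP signal transducer smad1.L had 215 and 219 CPM in marginal zone, against 81.5 and 83.0 CPM in ectoderm (log2 fold change 1.399, SE 0.0472). The gene lef1.L, the nuclear partner of β-catenin, had 12.96 and 14.8 CPM in marginal zone, against 4.68 and 4.93 CPM in ectoderm (log2 fold change 1.53, SE 0.15). β-catenin itself (ctnnb1) was nearly level, with log2 fold changes of -0.19 and -0.16 for the L and S copies, both called lower. Cell cycle genes had 30 higher (49.2%) and 17 lower (27.9%) of 61 tested, none of them by 4-fold, against 29.9% of all genes called in each direction. The mitotic phosphatase cdc25a (LOC398141) had 195 and 190.0 CPM in marginal zone, against 92.4 and 92.1 CPM in ectoderm (log2 fold change 1.06, SE 0.0473). The replication licensing factor cdt1.S had 279.7 and 281 CPM in marginal zone, against 149 and 154 CPM in ectoderm (log2 fold change 0.89, SE 0.0422). Both genes were higher in marginal zone in every library. In the other direction, the mitotic kinase copy cdk1.S had 31.8 and 29.5 CPM in marginal zone, against 76.4 and 76.7 CPM in ectoderm (log2 fold change -1.32, SE 0.0698). Cyclin ccnb3.S had 99.0 and 98.7 CPM in marginal zone, against 194 and 189.6 CPM in ectoderm (log2 fold change -0.96, SE 0.0472). B-type cyclins thus differed in opposite directions, since ccnb1.L (0.93) and ccnb2.S (0.81) were higher.

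**Figure D4:**
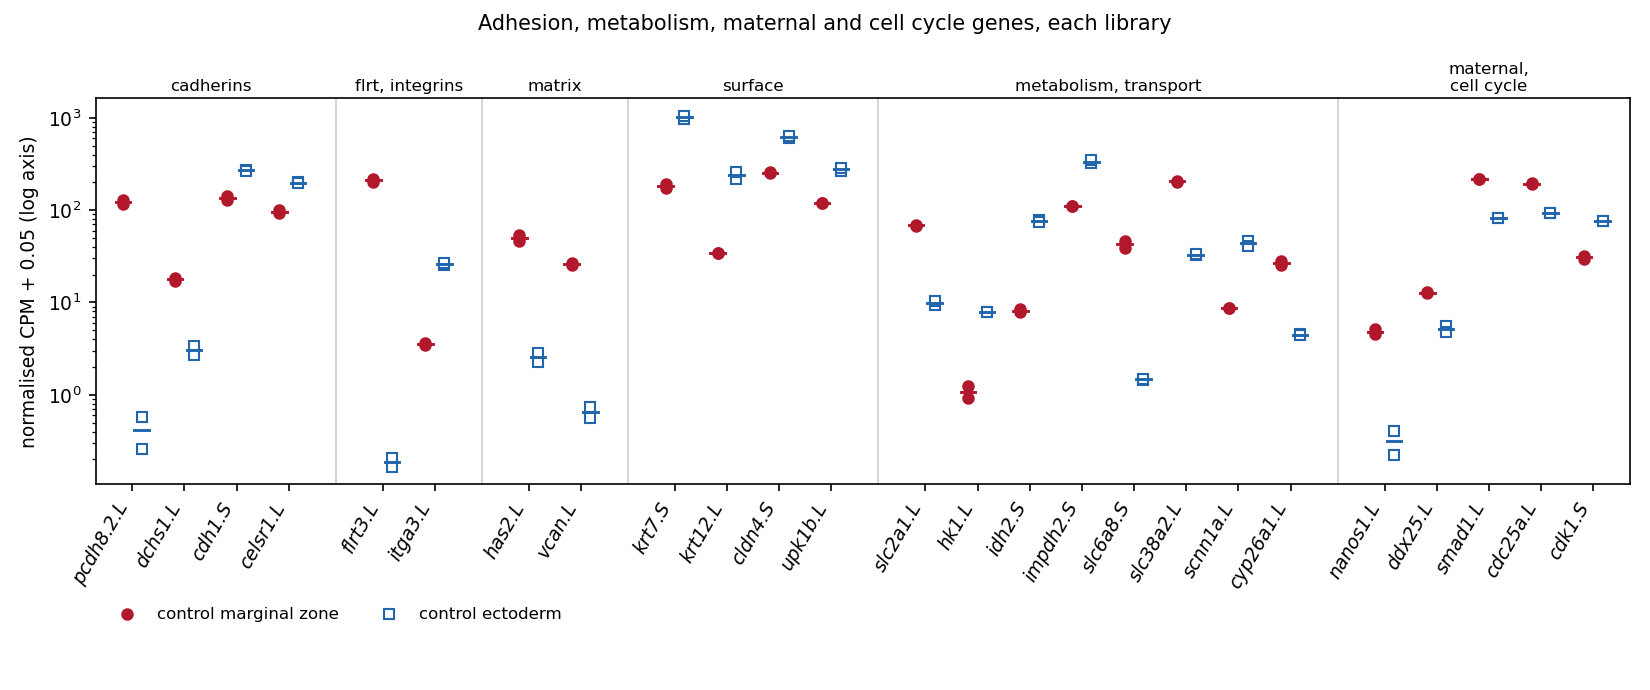
Normalised CPM plus 0.05 on a log axis for adhesion, matrix, surface, metabolic, maternal and cell cycle genes, with 1 point per library and a short line for the mean of 2, control marginal zone in red circles and control ectoderm in blue squares. The protocadherin pcdh8.2.L, flrt3.L and slc6a8.S are far higher in marginal zone, idh2.S, itga3.L and krt7.S far lower, and genes such as cdh1.S and cdk1.S differ by smaller amounts.

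The homeologs allowed each difference to be set beside that of a related copy in the same libraries. Of 3856 pairs with both copies tested, 1601 had both copies called, 1243 of them in the same direction and 358, or 22.4%, in opposite directions; 1586 pairs had 1 copy called and 669 neither. In 38 pairs the copies were called in opposite directions with at least a 2-fold change in each. Of the pairs with large changes, 172 pairs were at least 4-fold higher in 1 copy or both, 63 of them in both, and 108 were at least 4-fold lower in 1 copy or both, 12 of them in both. The median absolute difference between copies was 0.37 on the log2 scale. Among genes of the 33 lists, 388 pairs were tested, with 168 called in the same direction and 34 in opposite directions. These pairs include flrt1, a relative of flrt3, where the S copy had 18.1 and 15.9 CPM in marginal zone, against 1.65 and 2.50 CPM in ectoderm (log2 fold change 3.05, SE 0.19) and the L copy had 1.81 and 1.38 CPM in marginal zone, against 4.06 and 4.88 CPM in ectoderm (log2 fold change -1.49, SE 0.27). The laminin chain lamb1 had 20.8 and 30.0 CPM in marginal zone, against 9.20 and 11.4 CPM in ectoderm for the S copy (log2 fold change 1.32, SE 0.14) and 8.01 and 7.22 CPM in marginal zone, against 16.3 and 13.9 CPM in ectoderm for the L copy (log2 fold change -0.996, SE 0.14). For the Krüppel-like factor klf5 the values were 40.0 and 48.6 CPM in marginal zone, against 24.8 and 24.1 CPM in ectoderm for the S copy (log2 fold change 0.86, SE 0.0907) and 70.8 and 73.4 CPM in marginal zone, against 129 and 135 CPM in ectoderm for the L copy (log2 fold change -0.87, SE 0.0539). Reads of near-identical copies can be assigned to either, which limits these comparisons, and the difference between copies was not tested as such. DESeq2 called 205 pairs in opposite directions.

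**Figure D5:**
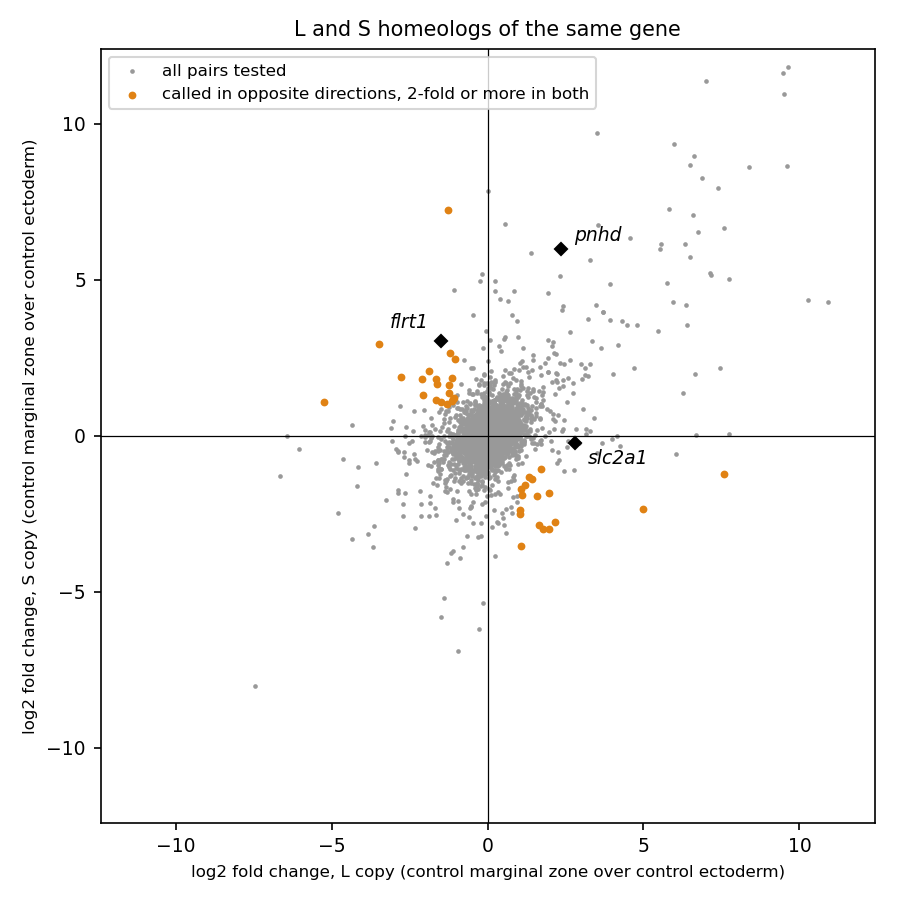
Each grey point is 1 of 3856 gene pairs, with the log2 fold change of control marginal zone over control ectoderm for the L copy (x axis) and the S copy (y axis), and orange points mark the 38 pairs called in opposite directions with at least a 2-fold change in each copy. The pnhd pair lies in the upper right, while flrt1 and slc2a1 fall in quadrants of opposite sign.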

How the data were processed

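Explant RNA was enriched on oligo(dT) beads, copied from random hexamers, amplified by PCR and sequenced on a HiSeq2000, per the labels' protocols. The authors deposited whole-number read counts for 35649 genes, with 2 columns for each sample; CASAVA 1.8, HISAT2, SAMtools and HTSeq are named in the submitters' processing notes, and no build, annotation, strand setting or counting option is given in the sources used here. The labels do not say why each sample has 2 columns; their counts were added, and 8 of 16 columns entered the fit. The columns of control marginal zone sample 1 carry mistyped names and were assigned to it because every other sample has its own pair. Without a stated strand setting, genes that overlap on opposite strands cannot be told apart.

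Of 24441 identifiers beginning with LOC, 11221 received a symbol from the RefSeq table of X. laevis v10.1. The 4 control samples were fitted with edgeR 4.0.16 (R 4.3.3, limma 3.58.1): genes passing a minimum of 10 counts, TMM scaling (factors 1.01 and 1.02 for marginal zone, 0.986 and 0.982 for ectoderm), 1 mean per tissue, a quasi-likelihood test with 2 residual degrees of freedom, and Benjamini-Hochberg adjustment over all 20411 genes tested. Each standard error was derived from the fold change and its F statistic, as |log2 fold change|/√F. Because edgeR moderates the spread of each gene towards a trend over genes, p-values and standard errors rest partly on spread borrowed from other genes. A tissue without reads was set to a floor of 3 counts over its 2 libraries, and for 1 to 3 reads the ratio has an exact 95% binomial interval; both cover counting error only, since copies made by PCR are counted as reads. The procedure was also run on simulated counts in which few genes were changed. That run does not cover data in which most genes differ, as here. DESeq2 1.42.0 and other scalings, filters, columns and sample sets were alternatives.

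The members of the 33 lists, 1848 genes in all, were chosen with earlier results of these data known. The text names, from each list, up to 5 higher and 4 lower members with the largest change at a mean log2 CPM of at least 2 and without overlap between tissues, the other homeolog beside them, and up to 10 genes outside the lists in each direction at a log2 CPM of at least 5; up to 3 little-changed members of a list were given as values. The receptors' ligands, the homeologs shown as a pair, and some members of smaller change were chosen after their values were seen. Samples of a tissue differed by more than counting noise (mean chi-square 2.05 in marginal zone and 2.27 in ectoderm, where 1 is the value for counting noise alone), so each was counted as its own sample. The 2 columns of the same sample already gave 1.29 to 1.46. Such an excess cannot show that the samples came from separate embryos or clutches. No sequences are shown.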

Additional observations from a re-analysis of the deposited data

How the results depend on the processing

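With 2 samples a tissue and stage labels that differ with tissue, precision rests on the spread between these samples. No gene named by the rule changed direction with a call under any alternative run. Most of these genes were picked for the largest changes of their list, and the alternatives refitted the same libraries. That outcome was therefore likely beforehand. Of the values for named genes over all alternatives, 6032 stayed on the same side of the threshold, 108 lost a call and 14 gained one. Called genes numbered 10949 to 11157 when 1 replicate at a time was left out, which leaves a lone sample assumed to vary like the other tissue, and 9226 with DESeq2 (4653 higher, 4573 lower). With total counts as the only scaling 6703 genes were higher and 5529 lower, and with upper-quartile factors 5722 and 6558, against 6104 and 6093 with TMM. With a mean of at least 50 counts, where fewer genes are tested, 308 genes were at least 4-fold higher and 228 at least 4-fold lower, against 784 and 642. Homeolog pairs in opposite directions numbered 38 when both copies had to change by at least 2-fold and 205 with DESeq2, against 358; the cause of the DESeq2 difference was not tested. The medians of 9 lists, between -0.12 and 0.11, changed sign under some alternative, and those of the other 24 lists kept theirs. Over all lists and alternatives, 155 medians moved by at least their SD over comparisons of single libraries, and 406 moved by less. The replicate differences of the tissues were not correlated (Pearson r -0.042 over 13064 genes). With 1 difference per tissue, that value cannot show whether samples of the same number shared a clutch or day. A fit with the replicate number as a block called 12191 genes, 6106 higher and 6085 lower, with 351 homeolog pairs in opposite directions. Shares of promoters with a motif, and their shorter window, were not run, since no promoter sequences were used here.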

Other observations

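Outside the lists, large changes were found in genes of varied roles, named here from those at a mean log2 CPM of at least 5. MGC79993 had 509 and 468 CPM in marginal zone, against 2.72 and 3.25 CPM in ectoderm (log2 fold change 7.36, SE 0.0782). The gene 1a11.L had 199.8 and 187 CPM in marginal zone, against 1.23 and 1.28 CPM in ectoderm (log2 fold change 7.26, SE 0.10). The ribonucleotide reductase subunit rrm2.1.L had 415 and 425 CPM in marginal zone, against 5.81 and 7.49 CPM in ectoderm (log2 fold change 5.99, SE 0.0695). The hairy and enhancer of split related gene esr-5.L, of the Notch pathway, had 91.0 and 99.7 CPM in marginal zone, against 6.48 and 7.199 CPM in ectoderm (log2 fold change 3.81, SE 0.0909). In none of these 4 genes did the tissues overlap. The serum and glucocorticoid regulated kinase sgk1.L had 75.4 and 81.7 CPM in marginal zone, against 3.80 and 6.096 CPM in ectoderm (log2 fold change 4.01, SE 0.12). On the other side, a keratin entry, krt.S, had 1.57 and 1.58 CPM in marginal zone, against 86.7 and 89.8 CPM in ectoderm (log2 fold change -5.80, SE 0.12). The cornifelin gene cnfn.1.L had 7.54 and 5.45 CPM in marginal zone, against 53.1 and 56.0 CPM in ectoderm (log2 fold change -3.09, SE 0.11). The gene socs3l.L, of the cytokine signalling suppressors, had 13.9 and 12.9 CPM in marginal zone, against 86.1 and 85.1 CPM in ectoderm (log2 fold change -2.68, SE 0.0802). For ddr2l.S the marginal zone libraries were far apart, with 5.50 and 18.8 CPM in marginal zone, against 72.1 and 73.8 CPM in ectoderm, and it was not called with a robust spread estimate (adjusted p = 0.0558).

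Genes grouped by the letters of their symbols, chosen after their values were seen, included further families with more members called in 1 direction than in the other. Among all tested genes 29.9% were called in each direction. Of 25 tested hes genes, transcriptional repressors downstream of Notch and other signals, 22 were higher in marginal zone and none lower, with a median log2 fold change of 1.45. Annexins (anxa), calcium-dependent membrane-binding proteins, had 12 of 14 lower and none higher, with a median of -0.79. Large ribosomal subunit protein genes (rpl) had 60 of 71 lower and 1 higher, with a median of -0.51, and translation initiation factor genes (eif) 45 of 71 lower and 6 higher, with a median of -0.25. Symbols beginning with znf had 89 of 164 higher and 20 lower, with a median of 0.33, and those beginning with usp, mostly ubiquitin-specific proteases, 37 of 71 higher and 6 lower. These medians kept their sign under total counts, upper-quartile and RLE scaling.

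The 2 control marginal zone samples were not alike in every list. Of the 42 tested mesoderm and mesendoderm regulators, 11 were above in the second sample, with a median log2 ratio of the second over the first of -0.16, and of the 38 ventral and posterior regulators 9 were, with a median of -0.07. In the other direction, 22 of 28 keratins and epidermal surface genes were above in the second sample, with a median of 0.03, and 40 of 65 neural plate and border regulators, also with a median of 0.03. Of 25 tested organizer regulators, 14 were above in the second sample, with a median of 0.06. Of all 20411 tested genes, 10193 were above in the second sample. The 2 control ectoderm samples differed in these lists too. In the second ectoderm sample 19 of 28 keratins and surface genes and 38 of 65 neural regulators were above, each with a median of 0.07. There, 17 of 42 mesoderm regulators (median 0), 23 of 38 ventral and posterior regulators (0.05) and 10 of 25 organizer regulators (-0.07) were above. No list was tested for a difference between samples. The ratio was taken on CPM plus 0.5.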
